A study of Mus musculus with 6 samples.

Results

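The genes described here encode the 2 REV-ERB nuclear receptors and 8 transcription factors or repressors that carry the output of the circadian clock. They were Nr1d1, Nr1d2, Dbp, Tef, Hlf, Nfil3, Per3, Ciart, Bhlhe40 and Bhlhe41, chosen by name. All 10 were found among the 27151 gene identifiers of the deposited table. RNA was sequenced from mouse granulosa cells, the somatic cells of the ovarian follicle, in 3 control and 3 GSK4112 libraries. Follicles were punctured in a solution containing milrinone, and the released cells were grown for 24 h in medium with serum. Serum was then withdrawn for 12 h, and the cells spent 24 h with GSK4112, a synthetic agonist of the REV-ERB receptor NR1D1, or without it, with fresh medium every 12 h. Controls went through the same puncture, starvation and medium changes, and the labels name no vehicle, strain or age. The series text calls the treatment in vivo, whereas the protocols describe a culture. No label ties a library to its own culture or animal, so p-values measure only the spread between these libraries, which may be technical.

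REV-ERBα (Nr1d1) and REV-ERBβ (Nr1d2) are heme-binding nuclear receptors that sit on DNA at an AGGTCA motif with an A/T-rich flank and recruit the NCoR-HDAC3 corepressor. The activators CLOCK and BMAL1 drive their genes, and those of Dbp, Per3, Ciart and the Bhlhe40 pair, through E-boxes (CACGTG), and REV-ERB proteins in turn repress the BMAL1 gene. DBP, TEF and HLF are PAR bZIP activators of D-box elements, at which NFIL3 (E4BP4), itself a REV-ERB target in other tissues, is a repressor. CIART (CHRONO) and the basic helix-loop-helix factors BHLHE40 (DEC1) and BHLHE41 (DEC2) counter CLOCK and BMAL1. In the ovary the clock has been linked to the timing of ovulation and to steroid synthesis. Every library was taken at 24 h of treatment, so the values give levels at that time and no rhythm.

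The summed level of 10 granulosa markers was 2971 to 3613 FPKM in control and 2145 to 2887 in GSK4112, and the groups did not overlap. Inha made most of that sum, at 1834 to 2173 FPKM in control and 1370 to 2245 in GSK4112, and its groups overlapped. Not every marker was high. Fshr was at 2.65 to 5.43 FPKM over the 6 libraries, and Amh stayed under 1 FPKM and was not tested. FPKM is fragments per kilobase of exon, scaled to library size. All 9 granulosa markers tested had a lower mean in GSK4112, as had 4766 of all 12181 genes tested. The median log2 difference of the markers was -0.82, against 0.05 over all genes tested. In limma 2 markers were called lower at an adjusted p under 0.05, as were 0.624% of all genes. These were Hsd17b1, an enzyme of sex steroid synthesis (64.3 ± 7.25 FPKM in control and 25.3 ± 3.94 in GSK4112), and the follistatin gene Fst (73.6 ± 15.4 and 24.0 ± 2.38), each with an adjusted p of 0.0187. Fitting the replicate number as a block added 2 calls among the markers, both lower and both genes of inhibin and activin subunits. With the block 4 of the 9 were called lower, against 3.82% of all genes. Inhba was at 335 ± 31.9 and 124 ± 71.7 FPKM (adjusted p = 0.1018 in limma, 0.0266 when blocked). For Inhbb the levels were 14.3 ± 6.07 and 4.21 ± 2.84 FPKM (0.1257, and 0.0018 when blocked). The part of these marker levels in the results below was not tested. Summed oocyte markers reached at most 3.42 FPKM over 6 genes and endothelial markers at most 1.00 over 5. The theca enzyme gene Cyp17a1 and the leukocyte gene Ptprc stayed under 0.1 FPKM. Libraries also stood apart in 2 ways, whose part in the values of the genes below was not tested. The replicate 1 libraries summed to 288 FPKM in control and 213 in GSK4112 over 18 mitosis genes, against 39.0 to 77.9 in the other 4 libraries. They were also highest in 8 theca and stroma markers (264 and 142 against 53.4 to 86.0), of which Acta2 made 234 and 125, and in 6 immune markers (36.4 and 31.6 against 4.66 to 13.0), of which Lyz2 made 34.2 and 30.1. Control replicate 2 summed to 1871 FPKM over 10 hypoxia-inducible genes. The other controls summed to 357 and 371 and the GSK4112 libraries to between 229 and 291, so the groups did not overlap with or without control replicate 2. In bulk RNA, fewer cells of a type and less RNA per cell cannot be told apart.

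With GSK4112, none of the 8 output genes that could be tested passed the threshold, an adjusted p under 0.05 in limma. A higher mean was seen in 6 of the 8, against 60.9% of all genes tested, and a lower mean in 2 (Ciart and Bhlhe40). At an unadjusted p under 0.05 there was 1 of the 8, Nr1d1, against 17% of all genes tested, and with the replicate number as a block 5 of the 8 (Nr1d1, Nr1d2, Dbp, Tef and Per3), against 25.4%. The test limma-voom on fragments recovered from the FPKM steps also called 0 (it called 0.6% of all genes higher). Over all 12181 genes tested, 126 (1.03%) were called, 50 (0.41%) higher and 76 (0.624%) lower. The split was 44 higher and 117 lower when scaled by median-of-ratios. Hlf and Bhlhe41 were not tested because their mean over the 6 libraries was below 1 FPKM. The median log2 difference of the 8 was 0.32, against 0.05 over all genes tested, on the log2(FPKM + 1) scale used throughout for differences. That scale understates the change of low genes. The replicate numbers were taken to pair the libraries by the check described with the processing, which does not settle how replicates 2 and 3 match. With the replicate number as a block Per3 was called higher. With the block 374 genes (3.07%) were called higher and 465 (3.82%) lower, against 1 higher and 0 lower among the 8.

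Of the 8 tested genes, 6 were higher in GSK4112 than in the control of the same number in all 3 pairs (Nr1d1, Nr1d2, Dbp, Tef, Nfil3 and Per3), as were 29.8% of all genes tested. The groups did not overlap in 2 of the 8, Nr1d1 and Nfil3, both higher in GSK4112, as in 15.7% of all genes. Among the untested members Bhlhe41 met both descriptions. Replicate 1 was the lowest library of both groups in 4 of the 8 (Nr1d2, Dbp, Tef and Per3) and in 22.8% of all genes. Between 3 and 3 libraries an exact two-sided permutation test cannot go below 0.1.

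**Figure D1:**
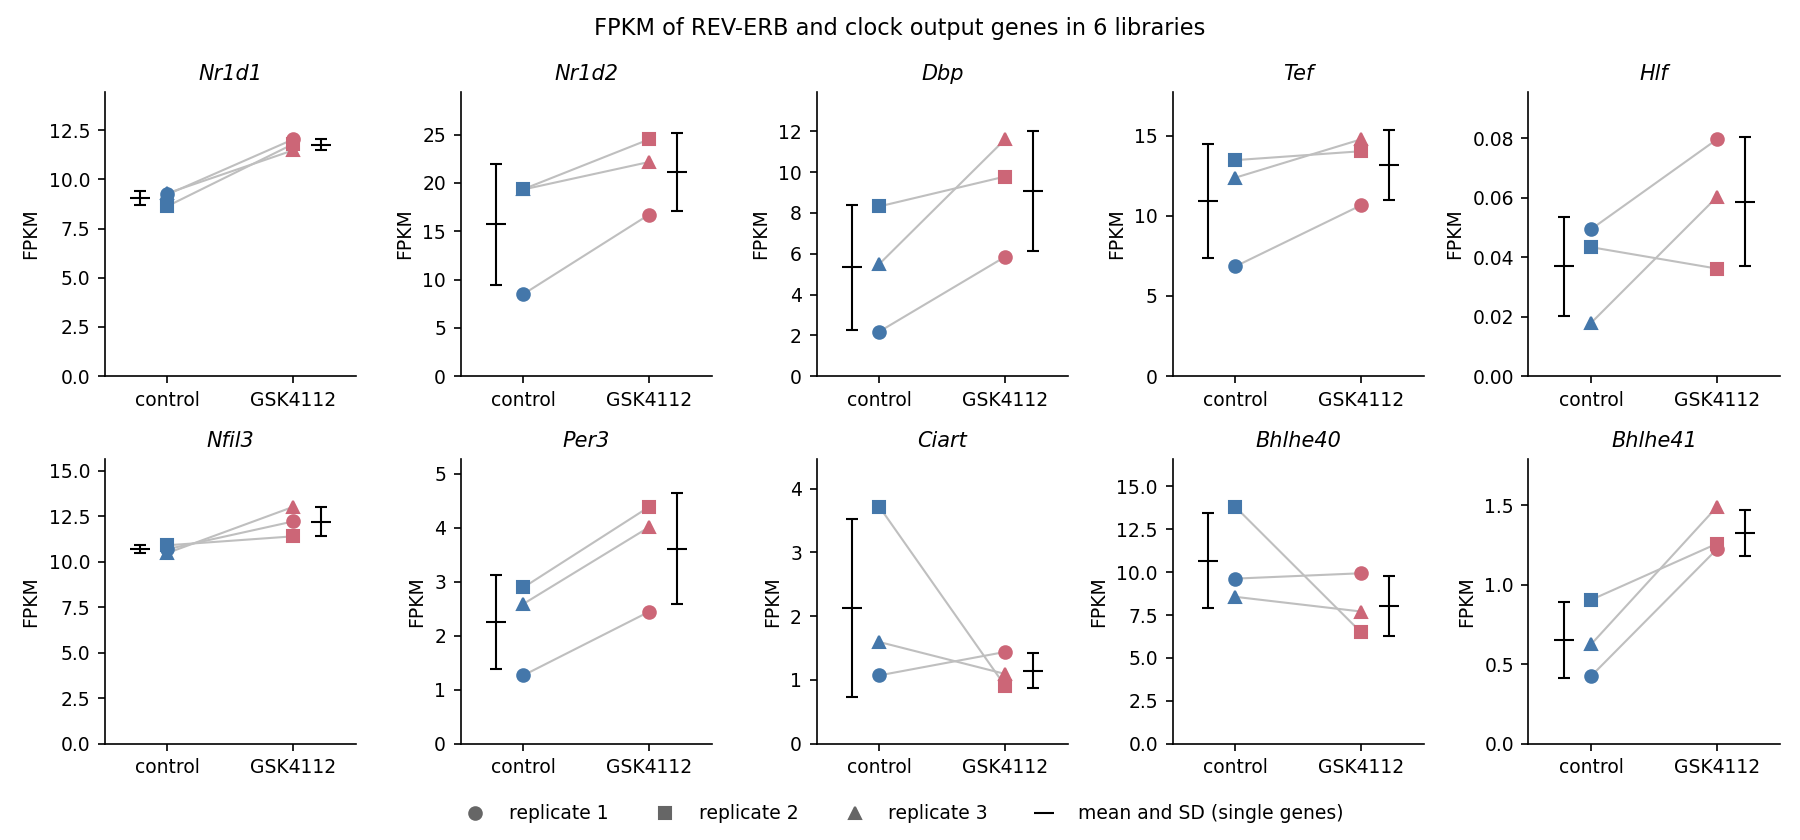
FPKM (y axis, from 0) of the 10 genes in the 3 control (blue) and 3 GSK4112 (red) libraries; grey lines join libraries with the same replicate number and black bars are the mean and SD. Nr1d1, Nfil3 and Bhlhe41 have groups that do not overlap, and control replicate 2 is the highest point for Ciart and Bhlhe40.

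Promoters were read from RefSeq (GRCm38.p6) for 9 of the 10 genes, each as 250 bases before and 50 after the annotated start. Motifs were searched by their letters on both strands: CACGTG (E-box), CACGTT (E′-box), AGGTCA (the REV-ERB core), TGACGTCA (CRE), and TTATGTAA, TTACGTAA or TTATGCAA (D-box). Printed are the 2 REV-ERB genes, with Per3 and Ciart, picked for their D-box or E-box matches. They are given 5′ to 3′ on the gene's strand, without bases inside the annotated gene, with motif matches in capitals. Because of that choice, the shares of windows given below are background and no test. The printed stretches are chr11:98775378-98775627 (minus strand) for Nr1d1, chr14:18239128-18239356 (minus) for Nr1d2, chr4:151044666-151044915 (minus) for Per3 and chr3:95882252-95882478 (minus) for Ciart.
Nr1d1: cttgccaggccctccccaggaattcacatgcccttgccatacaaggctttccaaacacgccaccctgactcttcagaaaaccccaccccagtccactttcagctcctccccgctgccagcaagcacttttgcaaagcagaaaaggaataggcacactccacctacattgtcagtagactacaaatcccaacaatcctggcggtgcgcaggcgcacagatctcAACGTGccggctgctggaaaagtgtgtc
Nr1d2: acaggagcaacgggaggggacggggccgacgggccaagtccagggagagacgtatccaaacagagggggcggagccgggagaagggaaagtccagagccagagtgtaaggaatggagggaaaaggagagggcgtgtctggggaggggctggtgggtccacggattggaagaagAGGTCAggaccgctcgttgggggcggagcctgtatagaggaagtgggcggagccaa
Per3: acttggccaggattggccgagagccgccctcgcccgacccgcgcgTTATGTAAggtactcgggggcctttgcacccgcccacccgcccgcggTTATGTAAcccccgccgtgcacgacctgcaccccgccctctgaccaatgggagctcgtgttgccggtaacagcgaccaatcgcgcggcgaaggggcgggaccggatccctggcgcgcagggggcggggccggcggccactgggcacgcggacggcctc
Ciart: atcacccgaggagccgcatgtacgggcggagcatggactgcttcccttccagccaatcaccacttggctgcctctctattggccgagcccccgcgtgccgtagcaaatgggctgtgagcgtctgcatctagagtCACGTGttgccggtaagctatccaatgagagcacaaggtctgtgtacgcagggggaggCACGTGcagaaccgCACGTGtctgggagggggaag
In these windows Nr1d1 held an E′-box 28 to 23 bases before its start and Nr1d2 an AGGTCA 77 to 72 bases before it. Per3 held 2 D-boxes, at 205 to 198 and 158 to 151 bases before its start, and Ciart 3 E-boxes, at 116 to 111, 58 to 53 and 44 to 39. Of 32851 windows of 300 bases in the table, 1.78% held a D-box and 0.05% held 2 or more. An E-box was in 7.15% and 3 or more in 0.088%, an E′-box was in 4.68% and AGGTCA in 16.3%. Among the genes not printed, Tef (in both of its windows) and Bhlhe41 held an E-box, Nfil3 an AGGTCA and Hlf a CRE (1.79% of windows). In Dbp none of these letters occurred in this window. A match describes the letters and shows no binding.

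Nr1d1, the gene of the receptor that GSK4112 activates (ENSMUSG00000020889; GRCm38 chromosome 11, 98767932 to 98775333, minus strand), had higher values in all 3 GSK4112 libraries. It was at 9.24, 8.64 and 9.30 FPKM in control replicates 1, 2 and 3 and at 12.0, 11.8 and 11.5 in the GSK4112 replicates. The highest control lay below the lowest GSK4112 library, and the replicate 1 libraries did not stand apart. These values rest on 459 to 516 fragments in control and 601 to 626 in GSK4112. The log2 difference was 0.34 ± 0.0742 (SE, n = 3 per group), with an adjusted p of 0.0911 in limma and 0.0622 with the block. With sample weights it was called (adjusted p = 0.0356; 3.86% of all genes were called higher there), and over all alternatives the adjusted p ran from 0.0356 to 0.3538. Its exons overlap those of Thra, a thyroid hormone receptor gene on the opposite strand, by 263 bases, 8.5% of the exon length of Nr1d1. The strand setting of the counting is not given in the sources used here, so reads of that stretch cannot be assigned. Thra was at 9.48, 12.1 and 11.2 FPKM in control and 12.1, 17.6 and 17.6 in GSK4112. Its log2 difference was 0.48 ± 0.16, with an adjusted p of 0.2194 in limma and 0.0363 with the block.

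Nr1d2, the paralog that shares the DNA motif and corepressor of Nr1d1 (ENSMUSG00000021775; chromosome 14, 18204054 to 18239127, minus strand), varied more between libraries than between groups. It was at 8.49, 19.4 and 19.3 FPKM in control and at 16.7, 24.5 and 22.2 in GSK4112. Replicate 1 was the low library of each group, at 0.439 of the mean of the other 2 in control and 0.717 in GSK4112, and the groups overlapped. Between the groups the log2 difference was 0.47 ± 0.32 (SE), with a 95% interval of -0.28 to 1.23 and an adjusted p of 0.4928 in limma (0.1102 with the block). Without control replicate 1 it was 0.11. The same 2 libraries were the highest in mitosis genes and stromal markers, and the part of these in the low Nr1d2 values was not tested. The ratio of Nr1d2 to Nr1d1, both per kilobase, was 0.919 and 1.39 in the replicate 1 libraries of control and GSK4112, and 1.93 to 2.24 in the other 4 libraries. That ratio was lowest in replicate 1 of each group, and the groups overlapped (exact two-sided permutation p = 1).

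Dbp, the PAR bZIP activator with the widest swing (ENSMUSG00000059824; chromosome 7, 45705088 to 45710203, plus strand), spanned 5.3-fold over the 6 libraries. It was at 2.19, 8.32 and 5.50 FPKM in control and 5.85, 9.79 and 11.6 in GSK4112, from 119 to 604 fragments. Replicate 1 was lowest in each group and control replicate 2 exceeded GSK4112 replicate 1, so the groups overlapped. The log2 difference was 0.76 ± 0.41 (SE; 95% interval -0.23 to 1.74), with an adjusted p of 0.4072 in limma and 0.0583 with the block. Within pairs it was 1.103, 0.21 and 0.96 for replicates 1, 2 and 3. Dbp was called higher in 3 fits with the block. These were on recovered fragments (adjusted p = 0.034; 5.47% of all genes were called higher), without both replicate 1 libraries (0.0451; 4.15%) and without both replicate 2 libraries (0.0016; 1.94%). It was not called with the block without both replicate 3 libraries (0.2188). Exons of Sphk2, a sphingosine kinase gene on the opposite strand, cover 539 bases (18%) of Dbp exons, and Sphk2 lay between 10.2 and 12.4 FPKM in all 6 libraries.

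Tef, a second PAR bZIP activator (ENSMUSG00000022389; chromosome 15, 81802421 to 81826863, plus strand), was at 6.84, 13.5 and 12.4 FPKM in control and 10.7, 14.0 and 14.8 in GSK4112. Its library order resembled that of Dbp and Nr1d2, with replicate 1 lowest in each group and overlapping groups. The log2 difference was 0.29 ± 0.25 (SE; 95% interval -0.31 to 0.88; adjusted p = 0.5977 in limma, 0.1881 with the block). Without control replicate 1 it was 0.01. An antisense transcript, Gm17597, covers 2.5% of its exons and reached at most 0.27 FPKM. Hlf, the other family member (ENSMUSG00000003949; chromosome 11, 90336536 to 90390895, minus strand), was barely detected. It had 6, 5 and 2 fragments in control and 9, 4 and 7 in GSK4112, or 0.018 to 0.0797 FPKM, and no difference could be read at this depth.

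Nfil3, the repressor that competes for D-boxes (ENSMUSG00000056749; chromosome 13, 52967209 to 52981073, minus strand), was the least variable of the 10 at 1.24-fold over the libraries. It was at 10.7, 10.9 and 10.5 FPKM in control and 12.2, 11.4 and 13.0 in GSK4112. All GSK4112 libraries lay above all controls, and replicate 1 was at 1.00 of the mean of the other 2 libraries in both groups. Its log2 difference was 0.17 ± 0.0798 (SE; 95% interval -0.02 to 0.36), with an adjusted p of 0.3341 in limma and 0.2746 with the block. Summed Dbp, Tef and Hlf per Nfil3 was 0.85, 2.004 and 1.71 in control and 1.36, 2.09 and 2.03 in GSK4112. The activator to repressor ratio overlapped between the groups (exact two-sided permutation p = 0.5) and was lowest in replicate 1 of each.

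**Figure D2:**
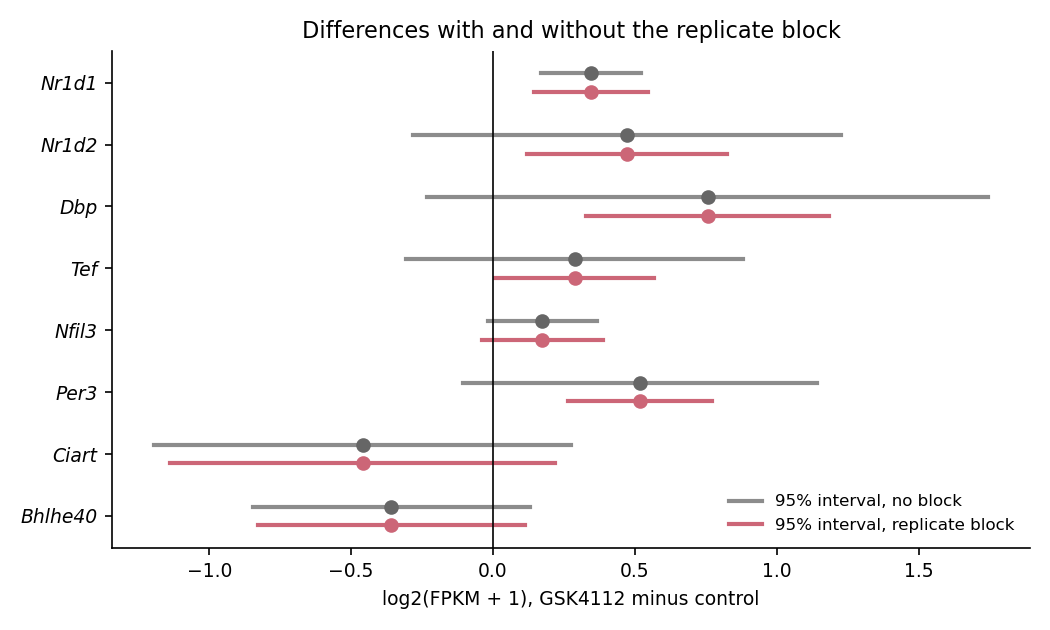
Difference in log2(FPKM + 1), GSK4112 minus control (x axis), of the 8 tested genes with 95% intervals from limma, without (grey) and with (red) the replicate block. The block narrows the interval most for Dbp, Nr1d2, Tef and Per3, the genes with low replicate 1 libraries, and leaves Ciart and Bhlhe40 nearly as wide.

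Per3, a period gene whose loss leaves the mouse clock running (ENSMUSG00000028957; chromosome 4, 151003652 to 151044665, minus strand), was higher in GSK4112 in each pair. It was at 1.27, 2.89 and 2.59 FPKM in control and 2.44, 4.39 and 4.01 in GSK4112, from 221 to 698 fragments. The GSK4112 value of replicate 1 lay below controls 2 and 3, so the groups overlapped. Within pairs the difference in log2(FPKM + 1) was 0.60, 0.47 and 0.48. The added 1 shrinks the difference most in the replicate 1 pair, which has the lowest values. The overall difference was 0.52 ± 0.26 (SE), adjusted p = 0.3746 in limma. With the block it was 0.52 ± 0.10, called with an adjusted p of 0.0403. The call with the block ended under median-of-ratios scaling (0.0518). It also ended in fits on 2 pairs, without both replicate 1 (0.0782), both replicate 2 (0.0987) or both replicate 3 libraries (0.1395). Without both replicate 3 libraries 0 of all genes were called. The Per3 call held on recovered fragments (0.0069). Its promoter is the window above with 2 D-boxes, the element of DBP, TEF and NFIL3. This is a match of letters, and its part in the Per3 values was not tested.

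Ciart, the CLOCK-BMAL1 repressor gene with 3 E-boxes in the printed window (ENSMUSG00000038550; chromosome 3, 95878503 to 95882251, minus strand), had its highest value in control replicate 2. It was at 1.07, 3.72 and 1.59 FPKM in control and 1.44, 0.908 and 1.09 in GSK4112, from 34 to 145 fragments. Control replicate 2 was 2.79 times the mean of the other controls, whereas the remaining 5 libraries lay between 0.908 and 1.59. Over all libraries the log2 difference was -0.46 ± 0.31 (SE; adjusted p = 0.4925 in limma, 0.3542 with the block). It was -0.12 without control replicate 2 and -0.04 with the block without both replicate 2 libraries. With the block and without both replicate 1 libraries, a fit on 2 pairs, Ciart was called lower (-0.81, adjusted p = 0.0376), as were 5.2% of all genes.

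Bhlhe40, a repressor of E-box genes that low oxygen also induces (ENSMUSG00000030103; chromosome 6, 108660629 to 108666925, plus strand), shared that library. It was at 9.62, 13.8 and 8.56 FPKM in control and 9.93, 6.49 and 7.70 in GSK4112. Control replicate 2 was highest, at 1.52 times the mean of the other controls, and the groups overlapped. The log2 difference was -0.36 ± 0.20 (SE; 95% interval -0.85 to 0.13; adjusted p = 0.4254 in limma, 0.3061 with the block). Without control replicate 2 it was -0.17, and with the block without both replicate 2 libraries -0.05. In the same library the 10 hypoxia-inducible genes summed to 5.14 times the mean of the other controls. Pgk1, a glycolytic enzyme gene, was at 728 FPKM there, at 159 in both other controls and at 97.7 to 128 in GSK4112. The part of this in the Bhlhe40 and Ciart values was not tested.

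**Figure D3:**
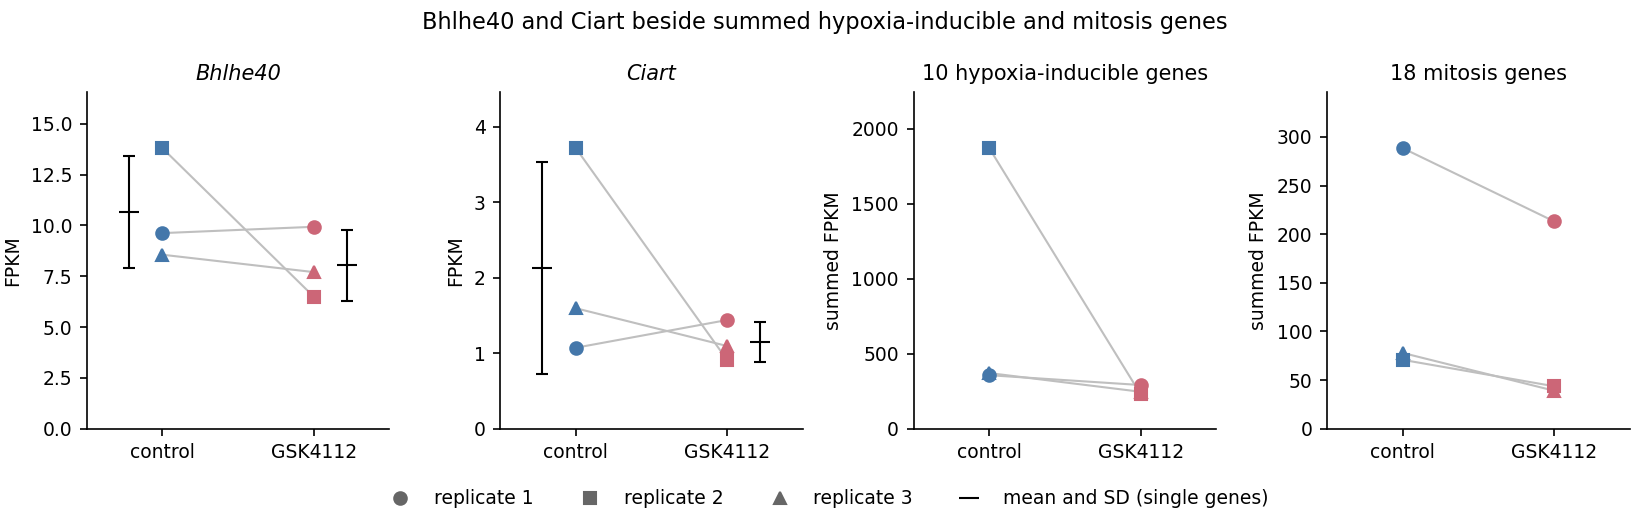
FPKM of Bhlhe40 and Ciart and summed FPKM of 10 hypoxia-inducible and 18 mitosis genes (y axes, from 0) by group, with replicate numbers as symbols and lines joining equal numbers. Control replicate 2 is highest for Bhlhe40 (13.8), Ciart (3.72) and the hypoxia-inducible sum (1871), while the mitosis sum is high in replicate 1 of both groups (288 and 213).

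Bhlhe41, the paralog of Bhlhe40 (ENSMUSG00000030256; chromosome 6, 145858243 to 145865558, minus strand), was higher in every GSK4112 library than in any control. It was at 0.426, 0.905 and 0.626 FPKM in control and 1.22, 1.26 and 1.49 in GSK4112, from 52, 105 and 70 fragments and 139, 140 and 174. Control replicate 2 was again the highest control, at 1.72 times the mean of the other controls, and still lay below all GSK4112 libraries. Fitted without the filter on low values, over 27151 genes, the log2 difference was 0.50 ± 0.16 (SE), with an unadjusted p of 0.01818 and an adjusted p of 0.328 in limma; there 0.0331% of all genes were called higher. A transcript on the opposite strand, Gm43909, overlaps 19% of its exons and reached at most 0.092 FPKM.

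Ordered by mean level per kilobase in control, the genes ran from Nr1d2 (15.7 ± 6.26 FPKM, SD, n = 3) through Tef (10.9 ± 3.55), Nfil3 (10.7 ± 0.212), Bhlhe40 (10.7 ± 2.77) and Nr1d1 (9.06 ± 0.362) to Dbp (5.34 ± 3.07), Per3 (2.25 ± 0.865), Ciart (2.13 ± 1.40), Bhlhe41 (0.652 ± 0.241) and Hlf (0.0369 ± 0.0167). Neighbours in that order overlapped in range except at 3 steps, from Nr1d1 to Dbp, from Ciart to Bhlhe41 and from Bhlhe41 to Hlf. In GSK4112 the order ran Nr1d2 (21.1 ± 3.99), Tef (13.1 ± 2.19), Nfil3 (12.2 ± 0.809), Nr1d1 (11.8 ± 0.279), Dbp (9.08 ± 2.94), Bhlhe40 (8.04 ± 1.74), Per3 (3.61 ± 1.03), Bhlhe41 (1.32 ± 0.145), Ciart (1.147 ± 0.269) and Hlf (0.0587 ± 0.0218). There Nr1d2 stood clear of Tef, Bhlhe40 of Per3, Per3 of Bhlhe41 and Ciart of Hlf. Nr1d2 lay at the 88.4th percentile of mean level among the genes of the table and Hlf at the 24.4th.

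**Figure D4:**
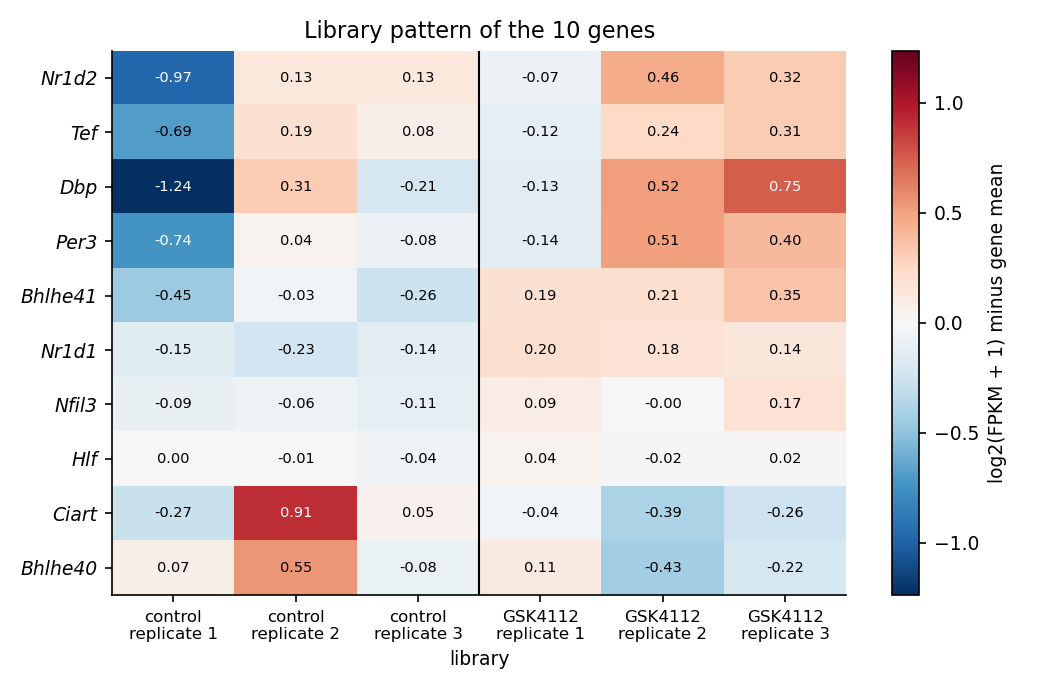
log2(FPKM + 1) of each gene (rows) minus its mean over the 6 libraries (columns; red above, blue below the mean), controls left of the black line. Nr1d2, Tef, Dbp, Per3 and Bhlhe41 are lowest in control replicate 1, from -0.45 for Bhlhe41 to -1.24 for Dbp, while Ciart (0.91) and Bhlhe40 (0.55) are highest in control replicate 2.

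Among the other genes of the clock and its known targets, the core clock loop had 12 tested genes of 15 listed. In limma 0 of the 12 passed, and 0 had an unadjusted p under 0.05. The abundant kinase and ligase genes Csnk1d (50.6 ± 2.998 FPKM in control and 52.4 ± 3.65 in GSK4112) and Fbxw11 (35.1 ± 3.12 and 35.1 ± 2.26) differed by less than their spread. The list's median log2 difference was 0.03, against 0.05 over all genes. On recovered fragments limma-voom called 0 of this list, and 1 with the block, against 170 and 1398 of all 12170 genes.

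The corepressor through which REV-ERB acts had 0 calls in limma among 6 tested subunit genes, with or without the block, and a median of 0.15. At an unadjusted p under 0.05 there were 2 of the 6 (Tbl1xr1 and Gps2), where 17% of all genes were. In limma-voom 0 were called, or 1 with the block, against 170 and 1398 of all 12170 genes. Tbl1x was at 32.3 ± 2.12 and 33.9 ± 2.85 FPKM and Ncor1 at 22.3 ± 3.60 and 25.0 ± 2.07. Genes for the turnover of REV-ERBα protein also had 0 calls among 5, with a median of 0.13, 0 at an unadjusted p under 0.05 and 0 in limma-voom with or without the block. Huwe1, a ubiquitin ligase, was at 21.4 ± 4.38 and 23.2 ± 2.20, and Gsk3b, a kinase of REV-ERBα, at 17.9 ± 2.58 and 19.4 ± 1.44.

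Of 9 genes known as REV-ERB targets of repression elsewhere in the body, 6 were tested. This list shares genes with those above: Nfil3 is also a member, and Clock, Arntl and Cry1 are also in the core clock loop. In limma 0 were called and 0 had an unadjusted p under 0.05, and the median log2 difference was -0.06. Lpl, lipoprotein lipase, had a log2 difference of -0.37 ± 0.47 (SE), and Fabp7, a fatty acid binding protein, one of -0.06 ± 0.38. With the block the SE was 0.12 for Lpl (adjusted p = 0.1266 in limma) and 0.20 for Fabp7 (0.8834), and neither was called. Among 8 other clock-controlled genes 7 were tested and 0 called, with a median of -6e-04 and 3 of the 7 at an unadjusted p under 0.05, where 17% of all genes were. With the block Herpud1, an endoplasmic reticulum stress gene, was called higher, as were 3.07% of all genes. It was at 18.9 ± 3.12 and 27.8 ± 0.276 (adjusted p = 0.0965 in limma and 0.0388 with the block). Tspan4, a tetraspanin gene, was at 42.1 ± 2.17 and 34.9 ± 2.44 (adjusted p = 0.1946) and Por at 38.6 ± 9.76 and 35.1 ± 4.92.

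Of the 9 hypoxia-inducible genes tested 0 were called in limma (1 at an unadjusted p under 0.05, Ldha, against 17% of all genes). With the block Adm, the adrenomedullin gene, was called lower (6.05 ± 2.06 and 3.87 ± 1.94, adjusted p = 0.0325), as were 3.82% of all genes. Pgk1 was at 349 ± 328 and 113 ± 15.3 and Ldha, lactate dehydrogenase A, at 347 ± 350 and 84.4 ± 14.2, the controls being spread by replicate 2. Without that library the groups still did not overlap for either gene. Pgk1 was at 159 in both other controls and 97.7 to 128 in GSK4112, and Ldha at 151 and 138 against 73.4 to 100. Slc2a1 also had groups that did not overlap, and those of the other tested genes of this list overlapped. All 9 had a lower mean in GSK4112, as had 4766 of all 12181 genes tested. Their median log2 difference was -1.07, against 0.05 over all genes. Of 18 mitosis genes 0 were called, also at an unadjusted p under 0.05. With the block 8 were called lower, Top2a, Cdk1, Ccnb1, Bub1b, Plk1, Kif11, Tpx2 and Cdc20, against 3.82% of all genes. The kinase gene Cdk1 was at 9.44 ± 6.98 and 5.09 ± 4.92 FPKM (adjusted p = 0.5237 in limma and 0.0113 with the block) and Cdc20, an activator of the anaphase-promoting complex, at 23.4 ± 21.2 and 14.7 ± 13.2 (0.7086 and 0.0147). In limma-voom the REV-ERB targets had 0 calls with or without the block. The other clock-controlled, hypoxia-inducible and mitosis genes had 0 without it and 1, 3 and 10 with it. Of all 12170 genes in limma-voom, 170 were called without the block and 1398 with it.

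**Figure D5:**
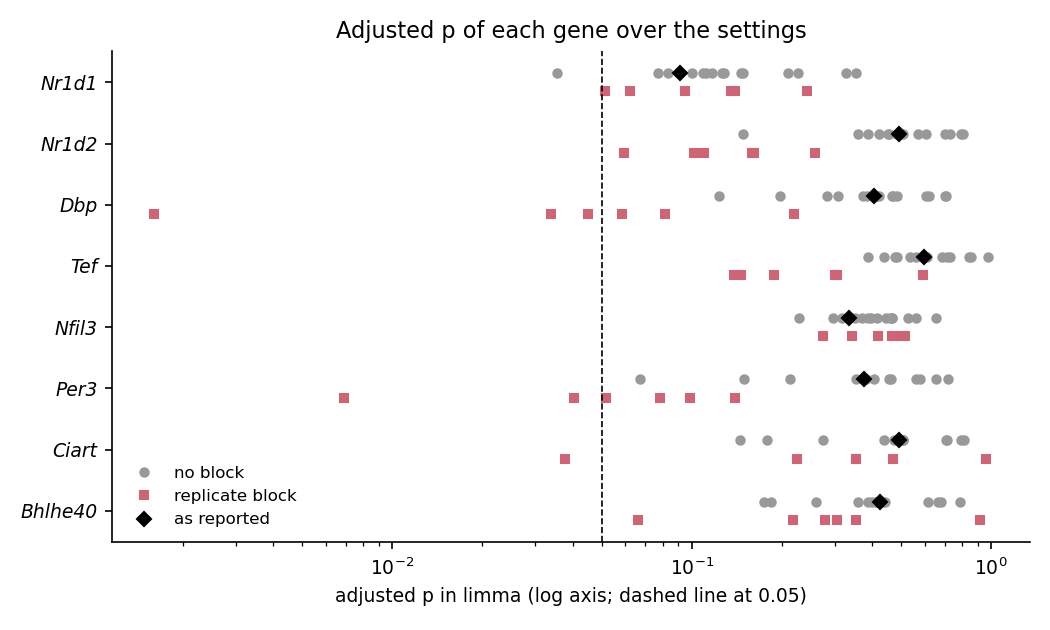
Adjusted p in limma (log axis, dashed line at 0.05) of the 8 tested genes over the settings: as reported (black diamonds), alternatives without the block (grey) and with it (red squares). Points left of the line are those of Nr1d1 with sample weights and of Dbp, Per3 and Ciart in fits with the block.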

How the data were processed

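The authors deposited FPKM values for 27151 Ensembl gene identifiers in 6 library columns, matched to samples by name; FPKM as the unit comes from the name of the deposited table. The submitters' processing notes name GRCm38. Not given in the sources used here are aligner, counting program, annotation release and strand setting. Symbols came from GENCODE M21, in which 27098 identifiers were found. FPKM times exon length moved in whole steps (92.8 to 93.1% of values below 500 fragments within 0.01), which gave 16559256 to 18158273 fragments per library, so 1 fragment adds 0.0551 to 0.0604 FPKM to a gene with 1 kb of exons. Fragment counts of Tef were not whole and its exon model may differ.

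Genes with a mean of at least 1 FPKM were tested with limma 3.58.1 (R 4.3.3) on log2(FPKM + 1) with a variance trend, 2-sided, with Benjamini-Hochberg adjustment over all 12181 genes and a threshold of 0.05. The script was tested on simulated data. Deviations from group means of same-numbered libraries correlated at 0.665, 0.326 and 0.213 over genes, each above 0.1, so the numbers were taken to pair the libraries; the pairing comes from the data, and no label gives it. GSK4112 replicate 2 correlated better with control replicate 3 (0.53), and GSK4112 replicate 3 with control replicate 2 (0.357). So the check cannot show that replicates 2 and 3 are matched as numbered, and every fit with the block rests on those numbers. The members, gene lists and motifs were chosen with earlier results of these data known. Of the listed genes, 3 outside the 10 members are not reported here and enter no list count or median; they stayed in the fit over all genes. Genes named were the 10 members, list genes called with or without the block, otherwise the 2 most abundant of a list, genes overlapping a member's exons, and 3 genes of nearest pattern for each of Nr1d1, Nr1d2 and Dbp. Genes named outside this rule were chosen after their values were seen. Alternatives were 19 planned and 4 added after seeing the data.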

Additional observations from a re-analysis of the deposited data

How the results depend on the processing

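None of the 8 tested genes changed the sign of its difference in the 22 or 23 settings in which it was fitted. These settings refit the same 6 libraries or parts of them, so they are not independent checks. Some differences came near 0. Tef was at 0.01 without control replicate 1, and Ciart at -0.04 and Bhlhe40 at -0.05 with the block without both replicate 2 libraries. Counts of output genes called higher were 1 with sample weights (Nr1d1), 1 with the replicate block (Per3), 1 each with the block without both replicate 1 or both replicate 2 libraries (Dbp), and 2 with the block on recovered fragments (Dbp and Per3). Called lower was 1, Ciart, with the block without both replicate 1 libraries. The block changed no other call of the 8. Leaving out a single library gave 0 to 0 in either direction. The cause of these changes was not tested.

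Over all genes, higher and lower calls were 374 and 465 with the replicate block, 470 and 360 with sample weights, 9 and 17 without a filter, 231 and 557 with the block and median-of-ratios scaling, 393 and 463 without both replicate 1 libraries and 505 and 634 without them with the block. They were 666 and 732 with the block on recovered fragments, 236 and 378 with the block without both replicate 2 libraries and 0 and 0 without both replicate 3 libraries (limma). Median-of-ratios scaling gave 117 lower. Leaving out single libraries gave 0 to 58 higher and 0 to 95 lower; the 0 came without control replicate 3 or GSK4112 replicates 2 or 3 (1843, 1224 and 1318 genes at an unadjusted p under 0.05), and without control replicate 2 there were 2 and 6. Depth limits Hlf (2 to 9 fragments) and, less, Ciart (34 to 145).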

Other observations

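Among 7489 named genes with a mean of at least 5 FPKM, the patterns nearest to Nr1d1 over the 6 libraries were those of Tmem19, Arhgef40 and Pi4ka, by the root mean square difference of mean-centred log2(FPKM + 1). That difference was 0.0186, 0.0189 and 0.0249, against 0.18 for the spread of Nr1d1 about its own mean. Tmem19 was at 13.7, 12.7 and 13.9 FPKM in control and 17.6, 17.6 and 16.5 in GSK4112. Nearest to Nr1d2 were Gclc, a subunit gene of the enzyme that starts glutathione synthesis (0.0939), Ogt, which encodes O-GlcNAc transferase (0.11), and Stxbp6 (0.11), against a spread of 0.46. Gclc was at 17.5, 35.0 and 38.7 FPKM in control and 27.9, 47.9 and 40.4 in GSK4112, with replicate 1 low in both groups. Nearest to Dbp were the glutathione transferase gene Gsta4 (0.19), the membrane metalloproteinase gene Mmp15 (0.21) and the endosomal adaptor gene Appl2 (0.21), against a spread of 0.65. Gsta4 was at 29.8, 71.0 and 48.1 FPKM in control and 74.3, 93.2 and 100.1 in GSK4112. These likenesses are descriptions over 6 libraries that share the replicate structure.

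The paralogs Bhlhe40 and Bhlhe41 had means that differed in opposite directions, a contrast chosen after its values were seen. The ratio of Bhlhe40 to Bhlhe41, per kilobase, was 22.6, 15.2 and 13.7 in control replicates 1, 2 and 3 and 8.12, 5.16 and 5.17 in GSK4112. Every GSK4112 library lay below every control, with control replicate 2 in the middle of its group, although Bhlhe40 and Bhlhe41 were both at their highest control value there. An exact two-sided permutation test gave p = 0.1, its floor for groups of 3.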
